A study of Arabidopsis thaliana with 12 samples.

Results

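The response of small RNAs to low nitrogen (low N) was measured in shoots of an Arabidopsis thaliana hasty knockout. Small RNA libraries of hasty low N shoots were set against those of hasty control shoots, with 3 biological replicates in each group, which makes 6 of the 12 libraries in the series. The other 6 libraries, 3 of WT low N and 3 of WT control shoots, gave the matching response of the Col-0 wild type. All seedlings were 10 days old, after 5 days on standard nutrients and 5 more in their condition. The control medium of those last days and the hasty allele are not described in the labels. Every microRNA (miRNA) name in the count table was a member, 390 names in all, of which 216 were known A. thaliana miRNAs and 174 were predicted names numbered as NovelmiRNA. Names with the same mature sequence were counted as 1, which left 325 features: 165 known sequences and 160 predicted names. Of these, 216 features (125 known, 91 predicted) had enough counts to be tested.

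miRNAs are short RNAs cut from hairpin precursors. The strand loaded into an ARGONAUTE protein guides it to complementary messenger RNAs, which are cleaved or kept from translation, and the bases next to the 5′ end, the seed, take a large share in that pairing. HASTY is the plant orthologue of the animal exportin that carries miRNA precursors out of the nucleus, and plants that lack it move early from the juvenile to the adult phase and hold less of many miRNAs. Small RNA libraries do not measure the HASTY messenger RNA, and the genotype rests on the labels. Several plant miRNAs follow the supply of nutrients, among them the families induced when copper, sulfate or phosphate is short, and nitrogen limitation is known to lower some of the same families.

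The sequences that carry the main changes are printed 5′ to 3′ from the RefSeq annotation of TAIR10.1, matched by name, with the seed (bases 2 to 8) in capitals. The first set holds miRNAs that were lower in hasty low N shoots and act in copper, sulfate or transcription factor NF-YA regulation. It shows that miR398a-3p and miR398b-3p, which were called separately, share a seed.
miR398b-3p: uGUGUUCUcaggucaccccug
miR398a-3p: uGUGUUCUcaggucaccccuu
miR397b: uCAUUGAGugcaucguugaug
miR395b: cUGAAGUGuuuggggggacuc
miR169h: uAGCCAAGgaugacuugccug

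The second set holds miRNAs that were higher. It includes miR156h, which passed the filter on low counts only through libraries in which it was high. No test is read from miR156h. miR164c-5p and miR164a share a seed and moved in the same direction.
miR164c-5p: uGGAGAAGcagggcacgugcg
miR164a: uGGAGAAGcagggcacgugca
miR165a-3p: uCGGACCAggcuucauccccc
miR824-5p: uAGACCAUuugugagaaggga
miR842: uCAUGGUCagauccgucaucc
miR403-3p: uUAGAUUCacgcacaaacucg
miR156h: uGACAGAAgaaagagagcac

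The third set holds the 3 mature sequences of the precursors MIR157a, MIR157b and MIR157c. The 5′ arm did not pass the test while both 3′ arms, which share a seed, were lower.
miR157a-5p: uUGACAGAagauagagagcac
miR157a-3p: gCUCUCUAgccuucugucauc
miR157c-3p: gCUCUCUAuacuucugucacc

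In hasty shoots, 42 of 216 features passed the test between low N and control (19.4%), 14 of them higher (6.48%) and 28 lower (13.0%). The test was edgeR's quasi-likelihood test on the deposited counts with Benjamini-Hochberg adjustment over all 216 features and a threshold of 0.05, and 63 features had an unadjusted p under 0.05. The split between directions depended on the scaling, and was 24 higher and 27 lower with median-of-ratios size factors. DESeq2, which changes both the size factors and the test, called 34 higher and 39 lower. The median log2 change over all features tested was -0.02. It was above 0 for 98 and below 0 for 109 of the 216 features. The rest were listed at 0 in all 6 hasty libraries, passed the filter through WT libraries and could not be called in hasty. They stay in the shares over all features. With the 2 hasty groups filtered and fitted alone, edgeR called 44 of 178 features. Between the 3 low N and the 3 control libraries, 89 of the 216 features did not overlap (41.2%), and 39 of the 42 called features were among them. Of the 42 features, 33 were above 0 in all 6 hasty libraries, and 13 of these changed by more than 2-fold, 11 lower and 2 higher. The 2 higher include miR156h, from which no test is read. The 11 lower include NovelmiRNA-131 and NovelmiRNA-132, which repeat the counts of the miR169h sequence. In shoots, fewer cells of a type and less RNA per cell cannot be told apart.

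**Figure D1:**
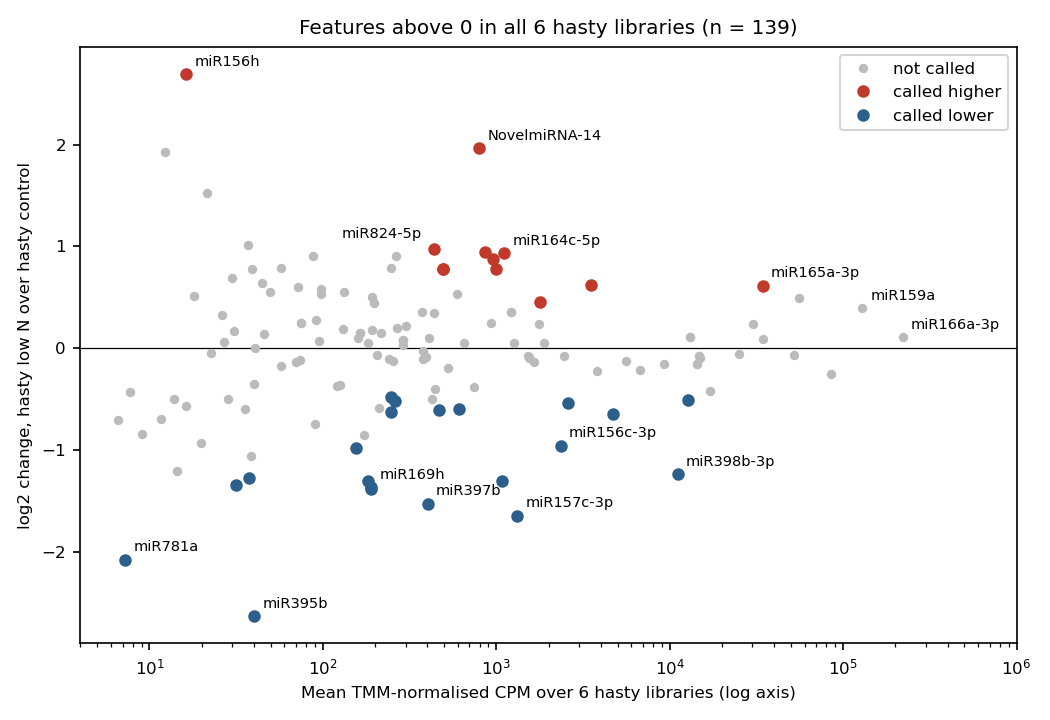
Log2 change between hasty low N and hasty control libraries (vertical axis) against the mean TMM-normalised counts per 1000000 (CPM) over the 6 hasty libraries (horizontal log axis) for the 139 tested features above 0 in all 6. Red points were called higher and blue points lower at an adjusted p under 0.05. The abundant miR166a-3p and miR159a lie among the features that were not called, and miR398b-3p is the blue point farthest to the right below a log2 change of -1.

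The libraries held 506483 to 634369 counts in hasty low N and 707476 to 895763 in hasty control shoots, with each sequence counted once, against 947733 to 1494215 in WT. Low N libraries were thus the shallower ones in hasty, and TMM factors, which scale library totals for composition, ran from 1.04 to 1.15 over the 6 hasty libraries. The 10 most abundant features took 74.5% to 77.8% of the counts in low N and 73.0% to 74.4% in control libraries. Each hasty library resembled 1 of its own group most closely by rank correlation over features, so no library went against its label in that respect. A value of 0 in this table is not always an absence, because at 26 zeros in the hasty libraries each of the 2 sister libraries had at least 50 counts. Features with such values are therefore given as counts and described as listed at 0.

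miRNAs of the copper-responsive group were lower as a group in hasty low N shoots. They repress copper proteins such as Cu/Zn superoxide dismutases (miR398), laccases (miR397) and plantacyanin (miR408), and copper shortage is known to induce them. Of 8 members 7 were tested, and 6 of the 7 were called lower and 0 higher, a share of 85.7% against 19.4% over all features. Their median log2 change was -1.21 against -0.02 over all features tested. The 6 calls include both arms of miR398b and both arms of miR408. Without single hasty libraries 4 to 6 members were called lower, and 4 without low N library 2, low N library 3 or control library 1. The count was 4 with a mean of at least 10 CPM and 7 with library totals or DESeq2. miR398b-3p, one sequence with miR398c-3p (chr5:4691107-4691127, plus strand, in a precursor antisense to AT5G14550), was the most abundant member. It had 5887, 6600 and 7360 CPM in hasty low N and 17329, 15309 and 14246 CPM in hasty control libraries. Every low N library lay below every control library, and the fold was 2.36 (log2 change -1.24 ± 0.11, SE; edgeR adjusted p = 6.15e-05).

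The opposite arm of the same precursors, miR398b-5p, averaged 625 ± 53.4 CPM in hasty low N and 1541 ± 214 CPM in hasty control shoots (SD, n = 3 each), which gave a log2 change of -1.30 ± 0.16 (edgeR adjusted p = 0.000415). Both arms therefore moved in the same direction by similar amounts. miR397b (chr4:7878730-7878750, minus strand) had 195, 232 and 193 CPM in hasty low N and 622, 675 and 493 CPM in hasty control libraries, 2.88-fold lower in low N (log2 change -1.53 ± 0.17, edgeR adjusted p = 0.00019). The groups were far apart, with the highest low N library below the lowest control library. miR398a-3p (chr2:1041012-1041032, plus strand) changed less than miR398b-3p, with which it shares the seed. Its levels were 215, 210 and 214 CPM in hasty low N and 331, 302 and 282 CPM in hasty control libraries (log2 change -0.52 ± 0.10, edgeR adjusted p = 0.00556).

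The calls for miR408 were less firm. miR408-3p had 476, 510 and 479 CPM in hasty low N and 851, 681 and 683 CPM in hasty control libraries, with no overlap (log2 change -0.60 ± 0.16, edgeR adjusted p = 0.0221). miR408-5p had 2432, 2372 and 1521 CPM in hasty low N and 2951, 2923 and 3291 CPM in hasty control libraries (log2 change -0.53 ± 0.16, edgeR adjusted p = 0.0469). Low N library 3 was the lowest for miR408-5p, and without it the log2 change was -0.33 and the edgeR adjusted p was 0.131. The same omission gave miR408-3p a log2 change of -0.57 and an edgeR adjusted p of 0.133. miR397a, the tested member that was not called, had 6.06, 9.54 and 10.4 CPM in hasty low N and 27.2, 13.6 and 19.8 CPM in hasty control libraries (edgeR adjusted p = 0.0525). All 7 tested members had log2 changes below 0, and this held under each alternative scaling.

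**Figure D2:**
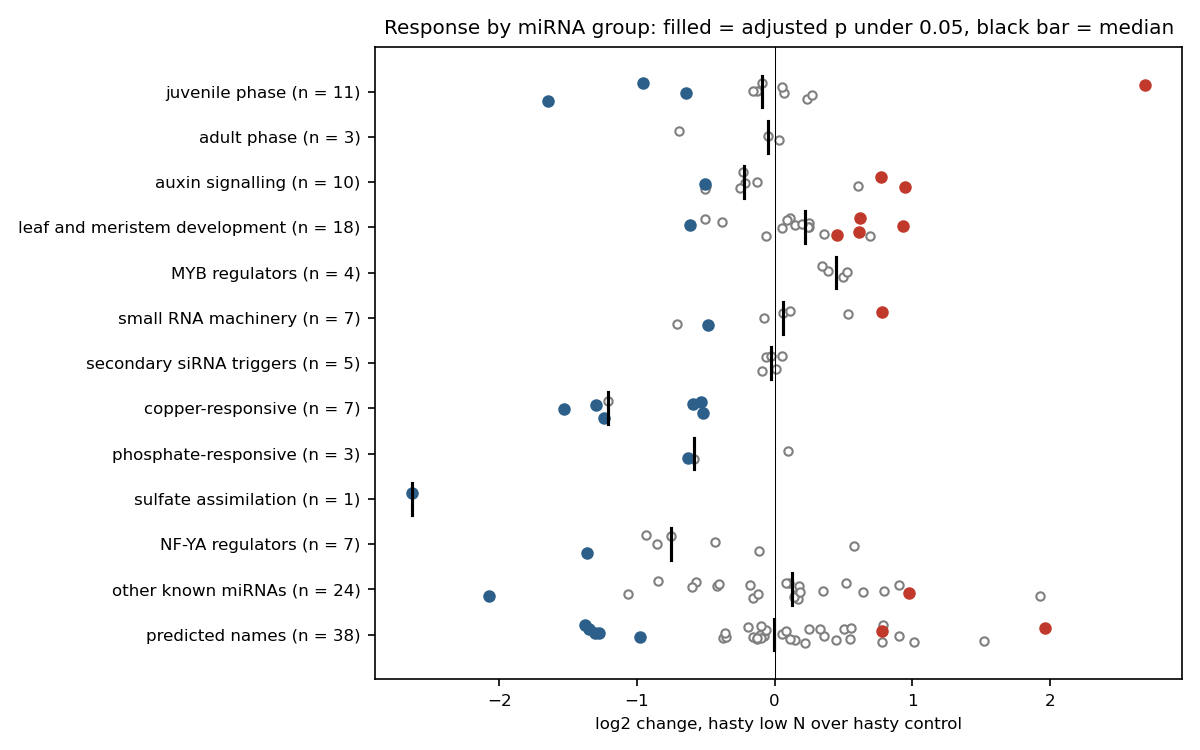
Log2 change between hasty low N and hasty control libraries (horizontal axis) for the members of each miRNA group that were above 0 in all 6 hasty libraries, with n in brackets. Filled points passed the test at an adjusted p under 0.05 (red higher, blue lower), open points did not, and black bars are group medians. The 7 copper-responsive members all lie left of 0, and the 4 MYB regulators lie right of 0 without a call.

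Among the other nutrient families, miR395 was lower. It is induced by sulfate shortage and represses ATP sulfurylases and a sulfate transporter. miR395b, one sequence with miR395c and miR395f (chr1:9364540-9364560, plus strand), had 15.1, 14.3 and 3.47 CPM in hasty low N and 54.5, 88.5 and 64.2 CPM in hasty control libraries, 6.21-fold lower in low N (log2 change -2.64 ± 0.63, edgeR adjusted p = 0.0153). These levels rest on 10, 9 and 2 counts in low N and 48, 91 and 52 in control libraries, and the groups did not overlap. miR395a had 18.2, 19.1 and 0 CPM in hasty low N and 54.5, 96.3 and 81.5 CPM in hasty control libraries, and was not called (edgeR adjusted p = 0.138).

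miR399, which represses the ubiquitin-conjugating enzyme PHO2 and rises when phosphate is short, had 2 lower calls that were not firm. miR399b, one sequence with miR399c-3p, had 204, 181 and 193 CPM in hasty low N and 247, 312 and 337 CPM in hasty control libraries (log2 change -0.63 ± 0.17, edgeR adjusted p = 0.0258). That call was lost when any of 5 libraries was left out: the edgeR adjusted p for miR399b was 0.0577, 0.0941 and 0.0547 without low N library 1, 2 or 3, and 0.0815 and 0.0913 without control library 2 or 3. miR399f was listed at 0 in all 3 hasty low N libraries, against 0, 28 and 43 counts in the hasty control group, so that the groups share the value 0 (edgeR adjusted p = 0.042). The call for miR399f was lost in 7 of 20 alternatives, with an edgeR adjusted p of 0.0942, 0.0941 and 0.0767 without low N library 1, 2 or 3 and 0.0815 and 0.0913 without control library 2 or 3. miR827, which represses a ubiquitin ligase of phosphate homeostasis, averaged 164 ± 23.0 CPM in hasty low N and 153 ± 21.1 CPM in hasty control shoots and was not called (edgeR adjusted p = 0.882). Of 9 phosphate-responsive members 6 were tested, with 2 called lower, 0 higher and a median log2 change of -0.98. The share called was 33.3%, against 19.4% over all features. When any 1 of those 5 libraries was left out, 0 were called by edgeR.

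Of 7 NF-YA regulators, the miR169 family, all 7 were tested and 1 was called lower, a share of 14.3% against 13.0% over all features, with a median log2 change of -0.75. NF-YA proteins are subunits of a CCAAT-binding transcription factor. The called sequence carries the names miR169h to miR169n, 7 precursors of which miR169h lies on chromosome 1 (chr1:6695544-6695564, minus strand) and the other 6 on chromosome 3. It had 69.7, 89.0 and 158 CPM in hasty low N and 313, 262 and 242 CPM in hasty control libraries, 2.58-fold lower in low N (log2 change -1.37 ± 0.35, edgeR adjusted p = 0.0217). Low N library 3 was the highest of its group, yet below every control library. The call for miR169h was lost without low N library 1 (edgeR adjusted p = 0.0713), low N library 2 (0.0864) or control library 1 (0.0644). miR169a-5p, the most abundant member, averaged 231 ± 21.5 CPM in hasty low N and 250 ± 11.9 CPM in hasty control shoots and was not called (edgeR adjusted p = 0.757). In the WT control libraries miR169h, miR169i and miR169l exceeded a name of the same sequence or the predicted double NovelmiRNA-132 by 600 to 1000 counts. In WT low N library 1 the excess of miR169i and miR169l was 100 counts, and so was that of miR169l in WT low N library 2. In hasty libraries the same names differed by 0 to 11 counts. No fold for WT is given for this sequence, but its WT values stay in the comparison with WT below.

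A longer list of families that earlier work described as repressed by low N (miR169, miR171, miR395, miR397, miR398, miR399, miR408, miR827 and miR857) takes in the copper, sulfate and NF-YA members above. Of its 28 members 27 were tested, with 11 called lower and 0 higher, and a median log2 change of -0.63. The share called was 40.7%, against 13.0% lower and 6.48% higher over all features, and it was down to 6 lower calls without low N library 2, 7 without low N library 1, and 8 to 9 without the other libraries. The one called member not yet described was miR170-5p, one sequence with miR171a-5p and the opposite arm of a regulator of GRAS transcription factors. It had 362, 358 and 396 CPM in hasty low N and 599, 543 and 564 CPM in hasty control libraries, with no overlap (log2 change -0.61 ± 0.10, edgeR adjusted p = 0.00255). Of 6 members described as induced by low N, 5 were tested, and miR842 alone was called, higher, a share of 1 in 5 that is near the 19.4% over all features.

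miR842, which represses jacalin lectin genes, lies on chromosome 1 (chr1:22577194-22577214, plus strand). Its levels were 1304, 1234 and 1162 CPM in hasty low N and 655, 690 and 668 CPM in hasty control libraries, 1.84-fold higher in low N (log2 change 0.88 ± 0.08, edgeR adjusted p = 6.15e-05). The libraries of each group lay close together and the groups were well apart. miR160a-5p, a regulator of auxin response factors and the most abundant member of the induced list, averaged 6262 ± 431 CPM in hasty low N and 7276 ± 615 CPM in hasty control shoots and was not called (edgeR adjusted p = 0.234).

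Of the miRNAs of leaf and meristem development, all 20 members were tested, 4 were called higher and 1 lower (miR170-5p), and the median log2 change was 0.17. These 5 calls among 20 members are a share near the 19.4% over all features. miR164 limits the NAC factors CUC1 and CUC2, which set organ boundaries, and both of its guide sequences rose. miR164c-5p (chr5:9852684-9852704, plus strand) had 1537, 1536 and 1311 CPM in hasty low N and 703, 715 and 874 CPM in hasty control libraries (log2 change 0.94 ± 0.11, edgeR adjusted p = 0.00024). miR164a, one sequence with miR164b-5p (chr2:19520770-19520790, plus strand), had 4309, 4115 and 4309 CPM in hasty low N and 2918, 2732 and 2623 CPM in hasty control libraries (log2 change 0.62 ± 0.08, edgeR adjusted p = 0.000487). Neither sequence overlapped between groups. The opposite arms were far less abundant and were not called: miR164b-3p averaged 81.2 ± 17.0 CPM in hasty low N and 68.3 ± 18.9 CPM in hasty control shoots (edgeR adjusted p = 0.628). miR164c-3p averaged 2.67 ± 1.82 CPM in hasty low N and 6.95 ± 6.06 CPM in hasty control shoots (log2 change -1.33, edgeR adjusted p = 0.473).

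miR165 and miR166 restrict class III homeodomain-leucine zipper factors, which set the upper side of the leaf. miR165a-3p, one sequence with miR165b (chr1:78932-78952, minus strand), had 46685, 42337 and 35600 CPM in hasty low N and 29316, 24685 and 27431 CPM in hasty control libraries, 1.53-fold higher in low N (edgeR adjusted p = 0.00556). miR166a-3p, the most abundant feature of all, averaged 228437 ± 29100 CPM in hasty low N and 211754 ± 12653 CPM in hasty control shoots, and was not called (edgeR adjusted p = 0.549). miR166e-5p averaged 2062 ± 201 CPM in hasty low N and 1504 ± 108 CPM in hasty control shoots (log2 change 0.46 ± 0.11, edgeR adjusted p = 0.0181). That call was lost without low N library 1, control library 1 or control library 3, with edgeR adjusted p-values for miR166e-5p of 0.0696, 0.0641 and 0.0546. The growth-factor regulators miR396a-5p and miR396b-5p were not called (edgeR adjusted p = 0.92 and 0.882).

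Within the auxin group, all 11 members were tested, with 2 called higher and 1 lower, a share of 27.3% against 19.4% over all features. Among the 11, miR847 was listed at 0 in every hasty library, passed the filter through WT libraries and could not be called. The 3 calls were sequences of miR167, and the lower one was not firm. miR167 represses the auxin response factors ARF6 and ARF8. Both arms of the MIR167c precursor rose: miR167c-5p (chr3:1306750-1306770, minus strand) had 1386, 1302 and 1070 CPM in hasty low N and 663, 695 and 839 CPM in hasty control libraries (log2 change 0.77 ± 0.15, edgeR adjusted p = 0.00647). Its 3′ arm, miR167c-3p, had 1169, 1224 and 1021 CPM in hasty low N and 496, 576 and 698 CPM in hasty control libraries (log2 change 0.95 ± 0.17, edgeR adjusted p = 0.00299). Neither arm overlapped between groups.

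The third call of the auxin group was miR167a-3p, with 9576, 9267 and 12669 CPM in hasty low N and 17513, 14624 and 12632 CPM in hasty control libraries (log2 change -0.51 ± 0.14, edgeR adjusted p = 0.0359). Its groups overlapped, since low N library 3 exceeded control library 3, and the call for miR167a-3p was lost in 11 of 22 alternatives. The edgeR adjusted p for miR167a-3p was 0.125 and 0.126 without low N library 1 or 2 and 0.128 and 0.0794 without control library 1 or 2. The abundant guide arm miR167a-5p averaged 77583 ± 4322 CPM in hasty low N and 92259 ± 4814 CPM in hasty control shoots and was not called (edgeR adjusted p = 0.336).

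Other known miRNAs that rose were miR824-5p and miR403-3p. miR824-5p, which represses the MADS-box gene AGL16 (chr4:12625128-12625148, plus strand), had 568, 547 and 617 CPM in hasty low N and 271, 328 and 279 CPM in hasty control libraries, 1.97-fold higher in low N (log2 change 0.98 ± 0.16, edgeR adjusted p = 0.00203). miR403-3p, which represses ARGONAUTE2 (chr2:19415154-19415174, plus strand), had 603, 601 and 665 CPM in hasty low N and 348, 403 and 337 CPM in hasty control libraries (log2 change 0.78 ± 0.11, edgeR adjusted p = 0.00104). Neither overlapped between groups. Of the other regulators of the small RNA machinery, miR168a-5p, which represses ARGONAUTE1, and miR162a-3p, which represses DICER-LIKE1, were not called (edgeR adjusted p = 0.473 and 0.753). miR168a-3p, the opposite arm of miR168a, averaged 206 ± 6.68 CPM in hasty low N and 289 ± 17.4 CPM in hasty control shoots and was lower (log2 change -0.48 ± 0.10, edgeR adjusted p = 0.00995).

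**Figure D3:**
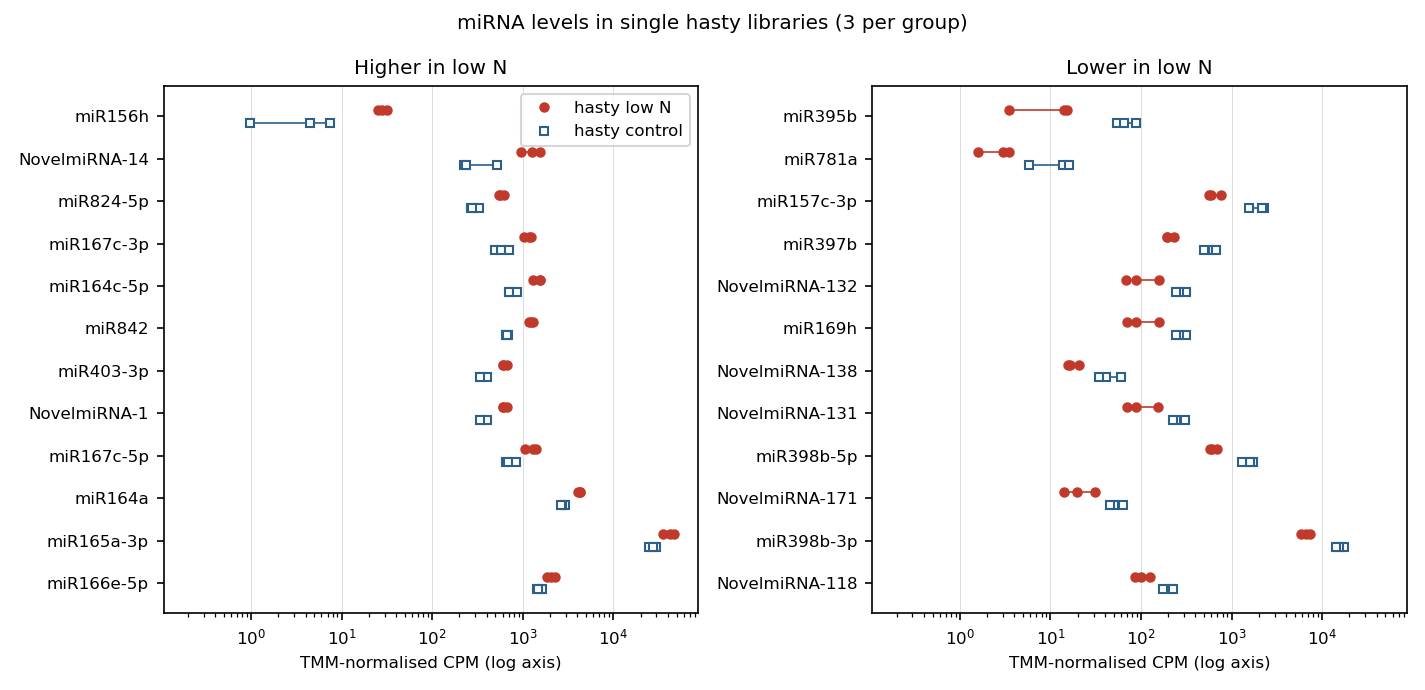
TMM-normalised CPM in each hasty library (log axis) for the 12 features with the largest changes in each direction among those called, above 0 in all 6 libraries and without overlap. Filled red circles are hasty low N and open blue squares hasty control libraries, joined within a group by a line. miR156h, at 1 to 21 counts a library, moved most among the higher ones and miR395b most among the lower ones. No test is read from miR156h. NovelmiRNA-1 repeats the counts of miR403-3p, and NovelmiRNA-131 and NovelmiRNA-132 those of the miR169h sequence.

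Some known miRNAs of low abundance were also called lower. miR781a, which lies within AT1G21200, had 3.03, 1.59 and 3.47 CPM in hasty low N and 13.6, 5.84 and 16.1 CPM in hasty control libraries (log2 change -2.08 ± 0.47, edgeR adjusted p = 0.0136). miR853 was listed at 0 in all 3 hasty low N libraries, against 0, 6 and 9 counts in the hasty control group (edgeR adjusted p = 0.0483). The call for miR853 was lost in 7 of 20 alternatives, with an edgeR adjusted p of 0.105, 0.0998 and 0.0868 without low N library 1, 2 or 3 and 0.0917 and 0.106 without control library 2 or 3. At 0 to 9 counts the depth does not separate a low level from none.

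The juvenile-phase miRNAs miR156 and miR157 repress SPL transcription factors and hold back the adult phase, and in hasty low N shoots some members were higher and some lower. All 12 were tested, with 1 called higher, 3 lower and a median log2 change of -0.02, against 6.48% higher and 13.0% lower over all features. miR156h (chr5:22597087-22597106, minus strand) had 31.8, 25.4 and 27.8 CPM in hasty low N and 4.54, 0.973 and 7.41 CPM in hasty control libraries, 6.47-fold higher in low N (log2 change 2.69 ± 0.70, edgeR adjusted p = 0.0221). These levels rest on 21, 16 and 16 counts in hasty low N and 4, 1 and 6 in hasty control libraries, and the groups did not overlap. miR156h passed the filter on low counts only through low N libraries, in which it was high. It is among the 42 calls, but no test is read from it. The call for miR156h was also lost without low N library 1 (edgeR adjusted p = 0.0599) or control library 1 (0.0641). The abundant miR156b-3p averaged 32709 ± 1263 CPM in hasty low N and 27785 ± 1282 CPM in hasty control shoots and missed the threshold (edgeR adjusted p = 0.0521).

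The guide sequence shared by miR157a, miR157b and miR157c, miR157a-5p, had 13743, 13903 and 13213 CPM in hasty low N and 14506, 15474 and 15666 CPM in hasty control libraries. All 3 low N libraries lay below the control libraries, but the difference was small and was not called (log2 change -0.16 ± 0.12, edgeR adjusted p = 0.453). The opposite arms were lower by more. miR157c-3p (chr3:6244527-6244547, minus strand) had 563, 595 and 762 CPM in hasty low N and 2291, 2148 and 1573 CPM in hasty control libraries, 3.13-fold lower in low N (log2 change -1.65 ± 0.16, edgeR adjusted p = 6.34e-05). miR157a-3p, one sequence with miR157b-3p (chr1:24913205-24913225, minus strand), had 3282, 3274 and 4514 CPM in hasty low N and 6113, 5580 and 5598 CPM in hasty control libraries (log2 change -0.64 ± 0.13, edgeR adjusted p = 0.00647). Neither 3′ arm overlapped between groups. miR157d, a separate sequence from a precursor of its own, averaged 666 ± 87.2 CPM in hasty low N and 643 ± 36.0 CPM in hasty control shoots and was not called (edgeR adjusted p = 0.919). miR156c-3p, also an opposite arm, had 1533, 1561 and 1688 CPM in hasty low N and 3355, 3291 and 2646 CPM in hasty control libraries (log2 change -0.96 ± 0.14, edgeR adjusted p = 0.00114).

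miR157a-3p was the one known miRNA whose low N response was called different from that in WT. In WT shoots it averaged 9263 ± 750 CPM in low N and 7416 ± 625 CPM in control (SD, n = 3 each), a log2 change of 0.32 that was not called (edgeR adjusted p = 0.108). The response in hasty was lower than that in WT by 0.96 on the log2 scale (interaction log2 -0.96, edgeR adjusted p = 0.0325). The call rests on few libraries: the edgeR adjusted p of the difference for miR157a-3p was 0.0998 and 0.147 without hasty low N library 1 or 2, and 0.0558, 0.0808 and 0.0596 without hasty control library 1, 2 or 3. When libraries were scaled by their totals alone, the edgeR adjusted p of the difference for miR157a-3p was 0.135. miR157c-3p averaged 1001 ± 55.9 CPM in WT low N and 2825 ± 130 CPM in WT control shoots, a log2 change of -1.50, and its response was not called different between genotypes.

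**Figure D4:**
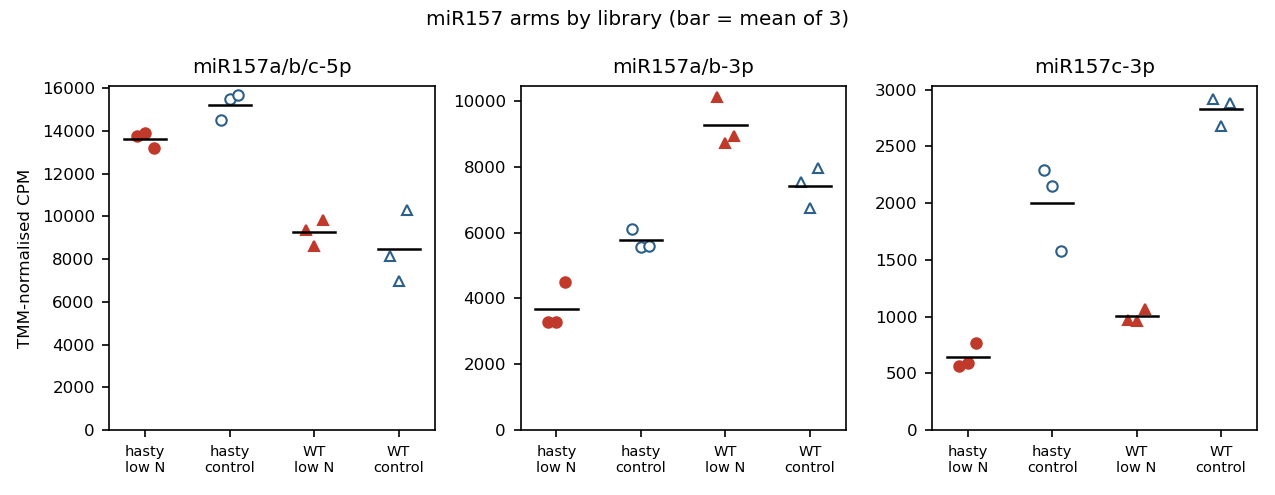
TMM-normalised CPM of the 3 mature sequences of the precursors MIR157a, MIR157b and MIR157c (vertical axes from 0, one per panel) in each library of the 4 groups, with black bars at the mean of 3. Filled symbols are low N and open symbols control, circles are hasty and triangles WT. For miR157a/b-3p the hasty low N libraries lie below the hasty control libraries, whereas the WT low N libraries lie above the WT control libraries.

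The adult-phase miRNA miR172 did not pass the test: 3 of 5 members were tested, 0 were called by edgeR in either direction, and miR172b-5p averaged 293 ± 40.1 CPM in hasty low N and 286 ± 49.5 CPM in hasty control shoots. Its 3 tested members had from 1.74 to 336 CPM over the hasty libraries. The regulators of MYB transcription factors had 0 calls, which depended on the processing. Of 6 members 4 were tested, all 4 with log2 changes above 0 and a median of 0.44. All 4 were called higher with median-of-ratios factors, with DESeq2 and among features above 0 in all 12 libraries, 2 with library totals or without low N library 3, and 0 with upper-quartile factors. miR159a had 147380, 160153 and 128770 CPM in hasty low N and 105857, 115418 and 111525 CPM in hasty control libraries (edgeR adjusted p = 0.189), with no overlap. miR159b-3p had 66072, 71325 and 58941 CPM in hasty low N and 46988, 47148 and 45069 CPM in hasty control libraries (edgeR adjusted p = 0.104) and passed the threshold in 14 of 22 alternatives. Of 6 triggers of secondary siRNAs, miR161.1, miR390a-5p and miR173-5p among them, 0 were called, with a median log2 change of -0.01.

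In 42 distinct pairs of arms from 1 precursor both arms were tested and could be compared. They held 35 distinct more abundant and 39 distinct less abundant arms, so some sequences stand in more than 1 pair. In 7 pairs the more abundant arm alone was called, in 6 the less abundant arm alone, in 3 both, and in 26 neither. The call of miR170-5p, one sequence with miR171a-5p, counts both among the 7 and among the 6. The 3 pairs with both arms called were miR398b, miR408 and miR167c, and in each both arms moved the same way. First base and length were recorded as further features of the sequences. Of 125 tested known sequences 73 began with U, and 9 of these were called higher and 9 lower, against 10 higher and 18 lower over all 125. Sequences of 21 bases gave 8 higher and 16 lower calls among 94.

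Of the 160 predicted names 91 were tested, with 4 called higher and 10 lower, a share of 15.4% against 19.4% over all features. Of the 91, 39 had log2 changes above 0 and 45 below. The rest were listed at 0 in all 6 hasty libraries and could not be called. No sequence or position was at hand for them, and 11 followed the counts of a known name in all 6 hasty libraries within 2 counts or 2%. NovelmiRNA-1 held the counts of miR403-3p, and NovelmiRNA-131 and NovelmiRNA-132 those of the miR169h sequence, so their calls repeat those above. NovelmiRNA-14 had 1567, 960 and 1283 CPM in hasty low N and 222, 237 and 515 CPM in hasty control libraries, with no overlap (log2 change 1.97 ± 0.33, edgeR adjusted p = 0.00255). NovelmiRNA-118, NovelmiRNA-138 and NovelmiRNA-171 were lower, with log2 changes of -0.98, -1.35 and -1.28 (edgeR adjusted p = 0.0181, 0.0221 and 0.0136).

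Some predicted names were listed at 0 throughout 1 group. NovelmiRNA-70 was listed at 0 in all 3 hasty low N libraries and held 2082, 2347 and 1542 counts in hasty control libraries (edgeR adjusted p = 9.84e-08). In WT it held 2279, 1946 and 2362 counts in low N and 4823, 4683 and 5685 counts in control libraries, and its response differed between genotypes (edgeR adjusted p of the difference = 3.37e-07). NovelmiRNA-66 was listed at 0 in hasty low N and held 51, 87 and 91 counts in hasty control libraries, and its response too was called different from that in WT (edgeR adjusted p of the difference = 0.0325). It passed the filter on low counts only through control libraries, so no test is read from that difference. The call of that difference for NovelmiRNA-66 was lost in 6 of 20 alternatives, with an edgeR adjusted p of 0.155, 0.205 and 0.124 without hasty low N library 1, 2 or 3 and 0.0805 and 0.0596 without hasty control library 2 or 3. NovelmiRNA-60, NovelmiRNA-93 and NovelmiRNA-100 were also listed at 0 in the 3 hasty low N libraries, against 28 to 56, 48 to 91 and 136 to 192 counts in hasty control libraries.

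NovelmiRNA-93 held exactly the counts of miR395b in the hasty control libraries and was listed at 0 in hasty low N libraries where miR395b held 10, 9 and 2 counts. NovelmiRNA-11 and NovelmiRNA-152 were listed at 0 in hasty low N as well and were not called (edgeR adjusted p = 0.144 and 0.119). In the other direction, NovelmiRNA-162 held 1018, 1107 and 1007 counts in hasty low N libraries and was listed at 0 in all 3 hasty control and all 6 WT libraries. NovelmiRNA-166 held 420, 371 and 388 counts in hasty low N and was listed at 0 in hasty control libraries. In WT it likewise held 693, 445 and 511 counts in low N and was listed at 0 in control. NovelmiRNA-60, NovelmiRNA-66, NovelmiRNA-93, NovelmiRNA-100, NovelmiRNA-162 and NovelmiRNA-166 passed the filter on low counts only through the libraries in which they were high. They are among the 42 calls, but no test is read from them. Whether these zeros are absent RNA or gaps in the listing was not tested.

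Set beside WT, most of the calls in hasty were shared. In WT shoots 51 of 216 features were called between low N and control (23.6%), 18 higher (8.33%) and 33 lower (15.3%). With median-of-ratios size factors the WT split was 31 higher and 29 lower, and with upper-quartile factors 32 higher and 26 lower. Called in both genotypes were 31 features, 12 higher and 19 lower, all with the same sign, which is 73.8% of the hasty and 60.8% of the WT calls. The hasty calls counted here include features from which no test is read and predicted names that repeat a known sequence. Among features above 0 in all 12 libraries, 27 were called in both genotypes and 6 in hasty alone. Of the 42 features called in hasty, 39 had the same sign in WT. The test of the difference called 3 of 216 features (1.39%), all 3 with the lower response in hasty: NovelmiRNA-70, NovelmiRNA-66 and miR157a-3p, and 22 features had an unadjusted p under 0.05. As above, no test is read from NovelmiRNA-66. DESeq2 called 19 differences. Over the 123 features above 0 in all 12 libraries the log2 changes in hasty and WT correlated with Spearman's rho = 0.77 and Pearson's r = 0.85. Over all 216 tested features rho was 0.60 and r was 0.42. Both sets include miR169h, whose WT counts differ between names of one sequence. These are descriptions across miRNAs, which share libraries and are not independent.

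**Figure D5:**
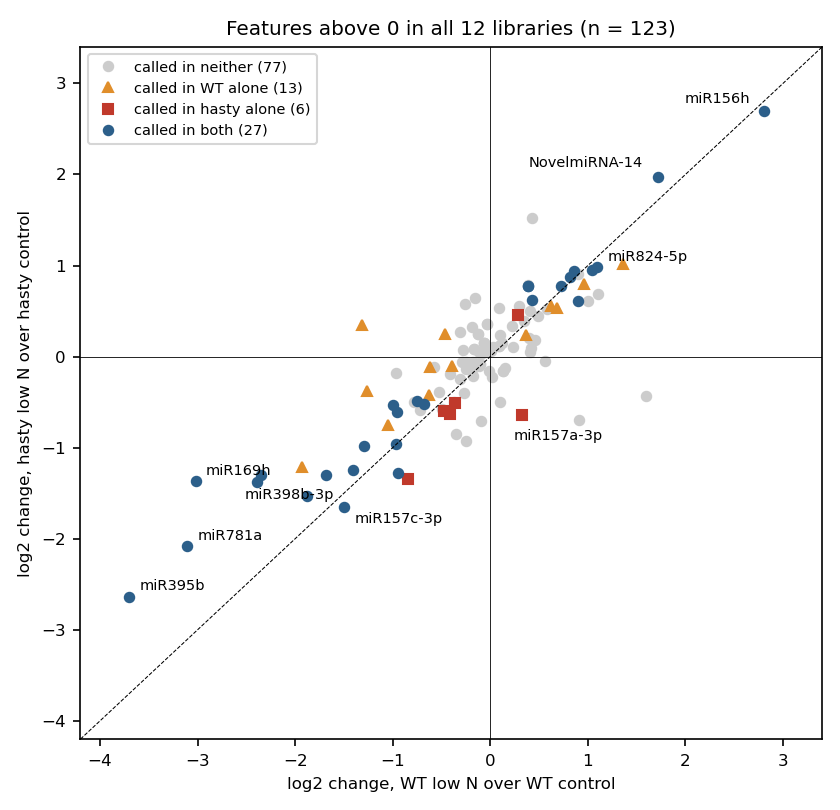
Log2 change between hasty low N and hasty control libraries (vertical axis) against that between WT low N and WT control libraries (horizontal axis) for the 123 tested features above 0 in all 12 libraries, with the dashed line at equal changes. Blue circles were called in both genotypes (27), red squares in hasty alone (6), orange triangles in WT alone (13) and grey points in neither (77). miR157a-3p is the red square below 0 on the vertical and above 0 on the horizontal axis. The horizontal position of miR169h rests on WT counts that differ between names of its sequence.

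The copper-responsive miRNAs were lower in both genotypes, with 6 of 7 tested members called lower in hasty and 6 of 7 in WT. miR397b averaged 552 ± 76.6 CPM in WT low N and 2030 ± 322 CPM in WT control shoots, a log2 change of -1.88 against -1.53 in hasty, and the difference was not called (edgeR adjusted p of the difference = 0.69). miR398b-3p averaged 6570 ± 563 CPM in WT low N and 17402 ± 1692 CPM in WT control shoots, a log2 change of -1.41 against -1.24 in hasty (edgeR adjusted p of the difference = 0.891). miR395b, miR781a and miR842 had log2 changes of -3.70, -3.11 and 0.81 in WT, against -2.64, -2.08 and 0.88 in hasty, and none of the 3 differences was called. A difference that misses the threshold with 3 libraries a group does not show that the responses were alike.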

How the data were processed

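Small RNA libraries of total RNA from shoots were prepared by adaptor ligation and PCR, per the labels. The deposited table holds whole-number counts per miRNA name for 12 libraries, and the authors gave it the name of a normalised unit although its columns differ in total. The aligner, the counter, their versions and how names were predicted are not given in the sources used here. As a genome, the submitters' processing notes name only mm10, a mouse build that cannot hold these plant miRNAs. The same reads were listed under several names, so known names were joined where RefSeq (TAIR10.1) gives 1 mature sequence (216 of 216 matched) and predicted names where all 12 counts were identical, and the highest count was kept. Sequences and coordinates are from TAIR10.1. How reads were shared between near-identical sequences (miR398a-3p and miR398b-3p, miR164a and miR164c-5p, miR165a-3p and miR166a-3p) is not given, so their separate values are uncertain to that extent.

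edgeR 4.0.16 in R 4.3.3 (TMM factors, filterByExpr, glmQLFit, glmQLFTest, two-sided, no block) was fitted to all 12 libraries with 1 coefficient per group and 8 residual degrees of freedom, and p-values were adjusted by the Benjamini-Hochberg method over 216 features. DESeq2 1.42.0 was an alternative. The SE of a log2 change is its size divided by the square root of the F statistic. With 3 libraries a side, the smallest p of an exact permutation test is 0.1. The PCR reads carry no stated molecular identifiers.

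The members, the 16 lists and the tests were chosen with earlier results of these data known. Named were the 12 largest changes in each direction among called features above 0 in all 6 hasty libraries, averaging 10 CPM or more in whichever hasty group was higher, without overlap; features at 0 in 1 hasty group and at 20 or more counts in every library of the other; the 3 most abundant members of each list; the 10 most abundant features; and up to 5 called interactions in each direction. miR156c-3p, miR157d, miR164b-3p, miR164c-3p, miR168a-3p, miR170-5p, miR397a, miR398a-3p, miR399f, miR408-3p and miR853 were named after their values were seen. The list of glucosinolate regulators had 0 members in the table.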

Additional observations from a re-analysis of the deposited data

Results flagged for a closer look

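The low N response of 3 features was called different between hasty and WT by the edgeR test of the difference over 216 features. For NovelmiRNA-70, listed at 0 in the 3 hasty low N libraries, the adjusted p of the difference was 3.37e-07. For NovelmiRNA-66, also listed at 0 there, it was 0.0325, and leaving out 1 hasty library gave up to 0.205. NovelmiRNA-66 passed the filter on low counts only through control libraries, so no test is read from it. For miR157a-3p, above 0 in every library, the adjusted p of the difference was 0.0325, with a log2 change of -0.64 in hasty and 0.32 in WT. That call was lost in 7 of 21 alternatives, and leaving out 1 hasty library gave an edgeR adjusted p of up to 0.147. Causes were not tested.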

How the results depend on the processing

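Of the 42 calls in hasty, 28 held in every alternative run for them, among them miR398b-3p, miR398b-5p, miR397b, miR395b, miR157c-3p, miR164a, miR164c-5p, miR824-5p, miR842 and miR165a-3p, and 14 were lost in at least 1. The 28 include NovelmiRNA-60, NovelmiRNA-66, NovelmiRNA-93, NovelmiRNA-100, NovelmiRNA-162 and NovelmiRNA-166, from which no test is read. They also include NovelmiRNA-1, which repeats miR403-3p. Over the 79 results checked for single features, 1534 of 1704 recomputed values kept their side of the threshold, 94 lost a call and 76 gained one. Where either setting gave a call, 0 changed sign. Features without a call could change sign, as miR172b-3p did, with log2 changes from -0.27 to 0.40. miR408-5p lost its call in 16 of 22 alternatives, with edgeR adjusted p-values from 0.0201 to 0.135, and its p was 0.0842, 0.0823 and 0.12 without control library 1, 2 or 3 and 0.0532 without low N library 2. miR408-3p lost its call in 12, and its p was 0.0713, 0.0548 and 0.133 without low N library 1, 2 or 3 and 0.0837 without control library 1. NovelmiRNA-118, NovelmiRNA-131, NovelmiRNA-132, NovelmiRNA-138, miR399f and miR853 also lost theirs when single libraries were left out, with edgeR adjusted p-values up to 0.0696, 0.06, 0.0548, 0.0747, 0.0942 and 0.106, and NovelmiRNA-171 did with the 2 hasty groups alone (0.062). The cause was not tested.

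The number of features called higher in hasty, 14, was 24 with median-of-ratios factors, 22 with a mean of at least 10 CPM, 24 with every name tested alone, 22 with names summed, 32 with only features above 0 in all 12 libraries, 34 with DESeq2 and 22 without the most abundant feature. In WT, 18 became 31 with median-of-ratios factors, 32 with upper-quartile factors, 47 with every name alone and 40 with DESeq2, where upper-quartile factors also moved the median log2 change of all features to 0.19, against -0.06. The 3 differences between genotypes became 6 with median-of-ratios factors, 5 with at least 10 CPM, 5 with every name alone, 6 with names summed and 19 with DESeq2. Without single hasty libraries they numbered 1 to 5: 1 without low N library 2, 1 without control library 2 and 5 without control library 1. Leaving out libraries gave 12 to 19 higher and 19 to 27 lower calls in hasty, with 2 alternatives (names of one sequence by their median, and predicted doubles left out) added after the data were seen.

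Replicate numbers did not pair the hasty libraries: same-numbered libraries had correlations of their deviations of 0.063, 0.085 and 0.073. With the replicate block edgeR called 34 features in hasty (13 higher, 21 lower), 35 in WT and 1 difference between genotypes. Depth limits features of a few counts, such as miR156h, miR781a, miR853 and miR395b.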
